A study of Mus musculus with 6 samples.

Results

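The EGF family ligands and ErbB receptors examined here are 10 genes, 7 ligands (Areg, Ereg, Hbegf, Tgfa, Epgn, Btc and Egf) and 3 receptors (Egfr, Erbb2 and Erbb3), of 41214 gene identifiers in the deposited count tables. They were taken by symbol, and each matched 1 Ensembl identifier. Messenger RNA had been sequenced from trypsin-treated skin, labelled epidermis, of C57BL/6 mice at postnatal day 4. The 3 wild-type (wt) libraries were compared with the 3 ARPC4 knockout (ko) libraries, whose titles mark them as homozygous. ARPC4 belongs to the Arp2/3 complex, the nucleator of branched actin networks. The labels do not give the deletion strategy, the cells in which the gene was deleted, any allele carried by the wt animals, or whether each library came from 1 animal. The p-values therefore reflect the spread between these libraries, which may be technical in part. Replicates 1 and 2 of each group have a date in their titles and replicate 3 of each group does not.

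Counts in genes ran from 17561294 to 22659511 per library. The suprabasal keratinocyte markers, led by the keratins of the differentiating layers, summed to between 83737 and 157557 CPM (read counts relative to the library total, scaled by TMM, edgeR's correction for library composition) and were the most abundant of the marker lists. Arpc4 itself stood at 76.1 ± 5.61 and 65.9 ± 1.56 CPM in wt and ko (SD, n = 3). Whether the counted reads come from a deleted part of the gene was not tested, and the deletion is therefore unchecked here. The basal keratinocyte markers differed widely within each group, with a mean of 8.66, 6.12 and 9.22 log2 CPM across wt replicates 1 to 3 and 7.36, 7.63 and 9.37 across the ko replicates. Sex was not balanced, with wt replicates 1 and 2 and ko replicate 2 from males by Ddx3y and Xist.

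EGF family ligands are made as membrane-anchored precursors. Proteases of the ADAM family release them, and the freed ligand binds a receptor tyrosine kinase of the ErbB family on the same or a neighbouring cell. Ligand binding pairs receptors and starts the RAS-ERK cascade, among others. In epidermis EGFR signalling sustains the growth and migration of basal keratinocytes and rises in wounds, and amphiregulin and HB-EGF are known as autocrine growth factors of keratinocytes. Areg, Epgn, Tgfa and Egf products bind EGFR, while those of Hbegf, Btc and Ereg bind EGFR and ERBB4. ERBB2 has no ligand of its own and serves as a partner, and ERBB3, a neuregulin receptor, has a kinase domain of very low activity.

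Ligands and receptors were compared between ko and wt. Mean levels of Areg, Ereg and Hbegf were 2.41, 2.19 and 2.24 times as high in ko as in wt, that of Btc was 0.512 times the wt level, and those of the 3 receptors were 0.985 to 1.25 times. No member passed the main test over all genes. All 10 members passed the filter on low counts, and 0 were called by edgeR's quasi-likelihood test at a Benjamini-Hochberg adjusted p of 0.05, at which 0.219% of the 13704 genes tested were called. An unadjusted p under 0.05 was found for 6 of the 10 (Areg, Ereg, Hbegf, Epgn and Egfr higher in ko, Btc lower), beside 13.2% of all genes (7.98% higher and 5.25% lower). In 5 of the 10 the groups did not overlap (4 higher and 1 lower in ko), beside 19.4% of all genes (11.3% higher and 8.03% lower). DESeq2 called 4 members, with Areg, Ereg and Hbegf higher and Btc lower, beside 4.25% of all genes (2.82% higher and 1.43% lower), and limma-voom called 0. Collection is the name used here for a covariate that marks whether the title holds a date, whatever that date records. With the collection covariate, these 4 members were called by edgeR, beside 5.17% of all genes (3.2% higher and 1.98% lower). Among the dated libraries alone it called Areg, Hbegf and Btc, beside 1.64% (1.16% higher and 0.485% lower). The undated libraries, 1 in each group, allow no test.

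**Figure D1:**
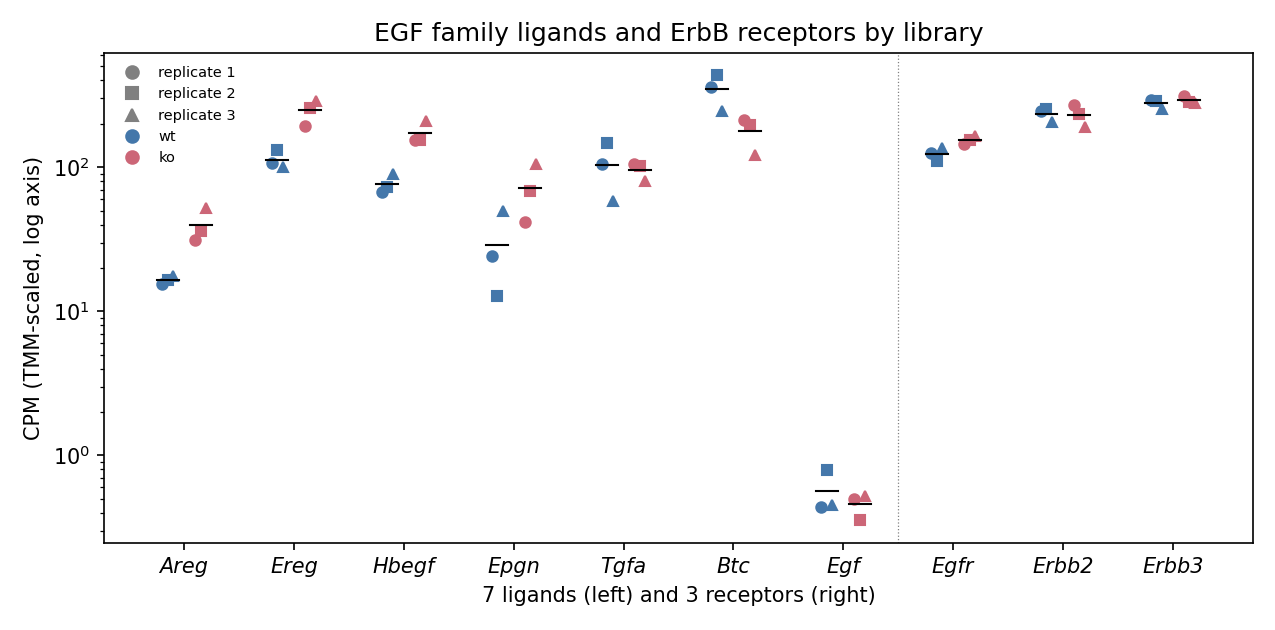
Level of each of the 7 ligands and 3 receptors in each library, as TMM-scaled CPM on a log axis, with wt in blue, ko in red, marker shapes for the replicate number and a black line at each group mean (n = 3). Every ko point of Areg, Ereg, Hbegf and Egfr lies above every wt point, every ko point of Btc lies below, and Egf lies under 1 CPM throughout.

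Epgn, Ereg, Areg and Btc lie side by side on mouse chromosome 5, from 91027464 to 91402994 (mm10), with Btc on the opposite strand. Promoter sequence came from RefSeq (GRCm38.p6, the same assembly, 250 bases before to 50 after each start). Windows of 7 of the 10 members were searched, Egf with more than 1 start. Those of Ereg, Hbegf and Erbb3 were not searched, so the motif results do not cover these genes. The last 150 bases before the start are shown, 5′ to 3′ on the gene's strand, for Areg and Epgn, whose mean levels were higher in ko, and for Btc of the same cluster, whose level was lower. Capitals mark matches to the motifs searched.
Areg (chr5:91139449-91139598, plus strand): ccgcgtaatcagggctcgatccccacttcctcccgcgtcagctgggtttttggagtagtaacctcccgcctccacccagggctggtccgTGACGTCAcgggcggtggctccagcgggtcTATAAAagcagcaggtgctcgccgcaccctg
Epgn (chr5:91027367-91027516, plus strand): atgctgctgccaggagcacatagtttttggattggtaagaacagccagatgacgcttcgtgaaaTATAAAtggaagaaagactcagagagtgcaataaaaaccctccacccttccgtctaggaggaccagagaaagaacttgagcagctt
Btc (chr5:91402995-91403144, minus strand): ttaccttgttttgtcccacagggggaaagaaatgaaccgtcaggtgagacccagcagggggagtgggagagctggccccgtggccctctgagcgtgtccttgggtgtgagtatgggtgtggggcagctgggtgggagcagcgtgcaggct
The cAMP response element TGACGTCA, bound by CREB and ATF factors, was found in the Areg window alone of the 8 windows, with its first base 61 bases before the start, beside 1.79% of 32851 promoter windows. The TATA box TATAAA was found 31 bases before the RefSeq start of Areg and 86 bases before that of Epgn, beside 13.6% of all windows. The RefSeq start of Epgn lies downstream of 91027464, the gene start in the coordinates used here. The end of the Epgn stretch therefore falls inside the gene, and the TATA box lies closer than 86 bases to that gene start. Neither the AP-1 element TGANTCA (7.81% of all windows) nor the core of the antioxidant response element TGACNNNGC (12.4%), which Nrf2 binds with small Maf proteins, matched in the 8 windows. Both strands were searched, and the motifs found do not overlap each other. The Btc stretch holds none of the 4. A match is a match of letters and is not a measured binding site.

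Amphiregulin, encoded by Areg (ENSMUSG00000029378, chromosome 5, 91139599 to 91148432, plus strand, mm10), was measured at 15.5, 16.5 and 17.6 CPM across wt replicates 1 to 3 and 31.4, 36.1 and 52.2 CPM across the ko replicates. The wt libraries lay close together and each ko library lay above all of them. The group means were 16.6 ± 1.03 and 39.9 ± 10.9 CPM (SD, n = 3), a 2.41-fold difference. Its log2 fold change, 1.27 (SE 0.20, with a 95% interval of 0.78 to 1.75), had an adjusted p of 0.0783 by edgeR, 0.00911 with the collection covariate and 0.0325 among the dated libraries alone, where it was 1.04.

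Epiregulin, a broadly acting ligand encoded by Ereg (ENSMUSG00000029377, chromosome 5, 91074622 to 91093646, plus strand), was measured at 108, 131 and 101 CPM across wt replicates 1 to 3 and 194, 259 and 290.2 CPM across the ko replicates. Again the groups did not overlap, and the lowest ko library was replicate 1. The means were 113 ± 15.9 and 248 ± 49.4 CPM (SD, n = 3), with a log2 fold change of 1.13 (SE 0.19, 95% interval 0.68 to 1.58). The adjusted p was 0.0822 by edgeR and 0.0234 with the collection covariate. Among the dated libraries alone the log2 fold change was 0.89 (edgeR adjusted p = 0.0769), so Ereg was the only one of the 4 not called there.

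Hbegf, the gene of heparin-binding EGF (ENSMUSG00000024486, chromosome 18, 36504927 to 36515805, minus strand), had the smallest p of the members. It was measured at 67.4, 72.5 and 90.5 CPM across wt replicates 1 to 3 and 154, 155 and 208 CPM across the ko replicates. The highest wt library lay far below the lowest ko library. The means were 76.8 ± 12.1 and 172 ± 31.3 CPM (SD, n = 3), and the log2 fold change was 1.17 (SE 0.18, 95% interval 0.74 to 1.60). Its adjusted p was 0.0688 by edgeR, 0.00302 with the collection covariate and 0.0207 in the dated libraries alone. In the undated libraries, 1 per group and so without a test, the log2 ratio of ko to wt was 1.20 for Hbegf, 1.57 for Areg and 1.53 for Ereg.

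Epgn encodes epigen, a weakly binding EGFR ligand that has been described as a target of Nrf2 in keratinocytes, the transcription factor named in the series title. Epgn (ENSMUSG00000035020, chromosome 5, 91027464 to 91035215, plus strand) was measured at 24.0, 12.9 and 50.1 CPM across wt replicates 1 to 3 and 41.5, 68.5 and 105 CPM across the ko replicates. The groups overlapped, because wt replicate 3 lay above ko replicate 1. The means were 29.0 ± 19.1 and 71.7 ± 31.9 CPM (SD, n = 3), with the largest log2 fold change among the members, 1.30 (SE 0.53, 95% interval 0.04 to 2.57, edgeR adjusted p = 0.363). Leaving out single libraries moved this value between 0.88 (without ko replicate 3) and 1.95 (without wt replicate 3), with no call. Within each group the order of Epgn followed that of the basal markers given above, lowest in wt replicate 2 and ko replicate 1 and highest in replicate 3 of each group. Egfr had the same order in both groups, and Btc, Tgfa and Erbb2 had the reverse order in both. With the mean of the basal markers as a covariate Epgn had a log2 fold change of 1.34 and was called (edgeR adjusted p = 0.0195), beside 6.5% of all genes under that covariate (4.19% higher and 2.31% lower), together with Areg, Ereg, Hbegf and Btc. A larger share of basal cells and more RNA per basal cell cannot be told apart in such bulk libraries, and the same holds for every cell type named below.

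Betacellulin, encoded by Btc (ENSMUSG00000082361, chromosome 5, 91357261 to 91402994, minus strand), was the ligand of highest level in wt and the only member whose groups separated with ko below. It was measured at 361, 435 and 246 CPM across wt replicates 1 to 3 and 214, 197 and 121 CPM across the ko replicates. All 3 ko libraries lay below all 3 wt libraries, but the gap between wt replicate 3 and ko replicate 1 was small beside the spread within each group. The means were 347 ± 95.3 and 177 ± 49.4 CPM (SD, n = 3), and the log2 fold change was -0.97 (SE 0.29, 95% interval -1.65 to -0.28). The adjusted p was 0.217 by edgeR, 0.00911 with the collection covariate and 0.0451 among the dated libraries alone. In the undated libraries its log2 ratio was -1.02. Markers of sebaceous cells were also lower in ko, with 5 of 6 below wt in every ko library, beside 8.03% of all genes, and summed levels of 456 to 684 CPM against 1203 to 1401 CPM in wt, and none of the 6 at 0. Across ko replicates 1 to 3 the sebaceous sums were 675, 456 and 684 CPM, highest in replicate 3, where Btc was lowest. Across the wt replicates they had the order of Btc. The part of sebaceous cells in the Btc difference was not tested.

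Tgfa and Egf showed no separation. Transforming growth factor alpha, encoded by Tgfa (ENSMUSG00000029999, chromosome 6, 86195223 to 86275719, plus strand), was measured at 106, 147 and 58.3 CPM across wt replicates 1 to 3 and 105, 102 and 80.2 CPM across the ko replicates. The ko libraries lay within the wt range (log2 fold change -0.11, SE 0.32, 95% interval -0.88 to 0.65, edgeR adjusted p = 0.928). Its sign turned to 0.18 with sex as a covariate. Among all 6 libraries Tgfa was highest in wt replicate 2, where the basal markers were lowest, and lowest in wt replicate 3. Egf (ENSMUSG00000028017, chromosome 3, 129677565 to 129755316, minus strand) had between 6 and 15 reads per library, or 0.564 ± 0.203 in wt and 0.459 ± 0.0911 CPM in ko (SD, n = 3). At this depth its 95% interval of -1.20 to 0.69 log2 (edgeR) is wide, and a difference within it was not detectable.

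**Figure D2:**
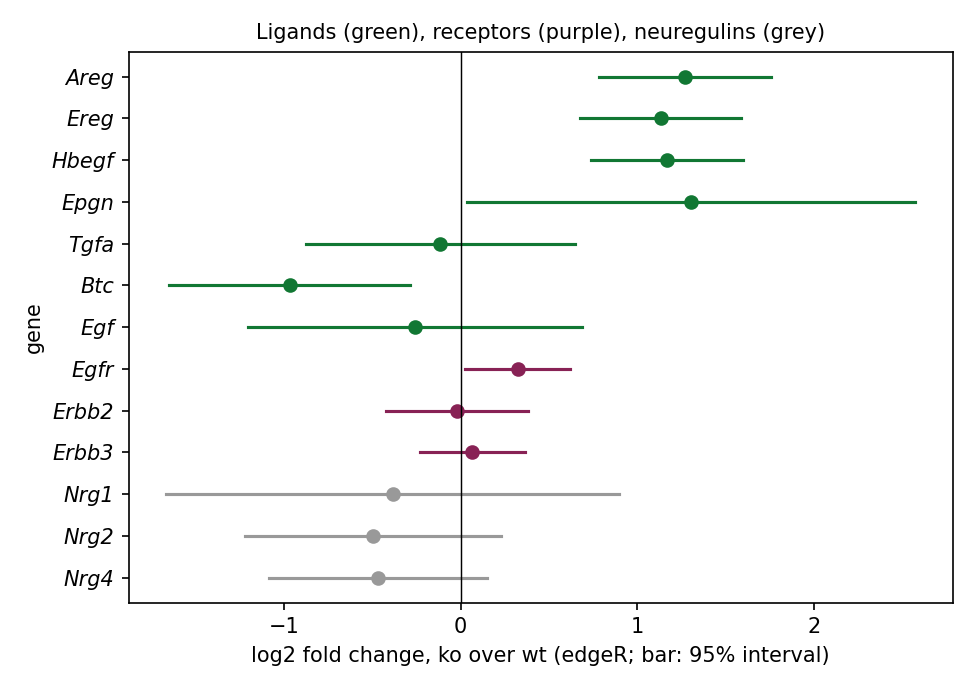
Log2 fold change of ko over wt by edgeR for the 7 ligands (green), the 3 receptors (purple) and the 3 neuregulins that passed the filter (grey), with bars for the 95% interval of each gene. The intervals of Areg, Ereg and Hbegf lie wholly above 0.67, that of Btc lies below -0.28, and those of Erbb2, Erbb3, Tgfa, Egf and the neuregulins span 0.

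No receptor was called, and only Egfr separated the groups. The EGF receptor gene Egfr (ENSMUSG00000020122, chromosome 11, 16752203 to 16918158, plus strand) was measured at 125, 111 and 136 CPM across wt replicates 1 to 3 and 144, 156 and 166 CPM across the ko replicates. Each ko library lay above each wt library by a small margin, with means of 124 ± 12.4 and 155 ± 10.9 CPM (SD, n = 3) and a log2 fold change of 0.32 (SE 0.13, 95% interval 0.02 to 0.62, edgeR adjusted p = 0.340, and 0.0934 with the collection covariate). The interval reaches at most 0.62, below the log2 fold changes estimated for Areg, Ereg and Hbegf. Erbb2 (ENSMUSG00000062312, chromosome 11, 98412470 to 98437716, plus strand), the partner receptor, was measured at 245, 254 and 206 CPM across wt replicates 1 to 3 and 270.4, 234 and 190.3 CPM across the ko replicates. The ranges of the groups largely coincided (log2 fold change -0.02, SE 0.17, 95% interval -0.42 to 0.38, edgeR adjusted p = 0.976). Erbb2 overlaps Mien1 on the opposite strand, which had 4891 reads over the 6 libraries, and whether the counting used strand is not given in the sources used here. Erbb3 (ENSMUSG00000018166, chromosome 10, 128567523 to 128589652, minus strand) was measured at 293, 290.0 and 253 CPM across wt replicates 1 to 3 and 311, 285 and 279 CPM across the ko replicates. It varied least of the members with more than 1 CPM, and its groups overlapped (log2 fold change 0.07, SE 0.13, 95% interval -0.23 to 0.37, edgeR adjusted p = 0.889). The intervals of Erbb2 and Erbb3 bound the difference but do not show equal levels.

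Melanocytes and Schwann cells also carry ERBB3. Their markers were low beside Erbb3 itself, with summed levels of 74.1 to 95.1 CPM in wt and 104 to 148 CPM in ko for 8 melanocyte genes (3 above wt in every ko library, beside 11.3% of all genes), and 28.2 to 39.9 and 49.2 to 68.8 CPM for 7 Schwann and nerve genes (5 above). None of these markers was at 0 in all libraries, and their part in the Erbb3 level was not tested. Of the 7 Schwann and nerve genes, 5 passed the filter on low counts, and 4 of those lay above wt in every ko library.

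**Figure D3:**
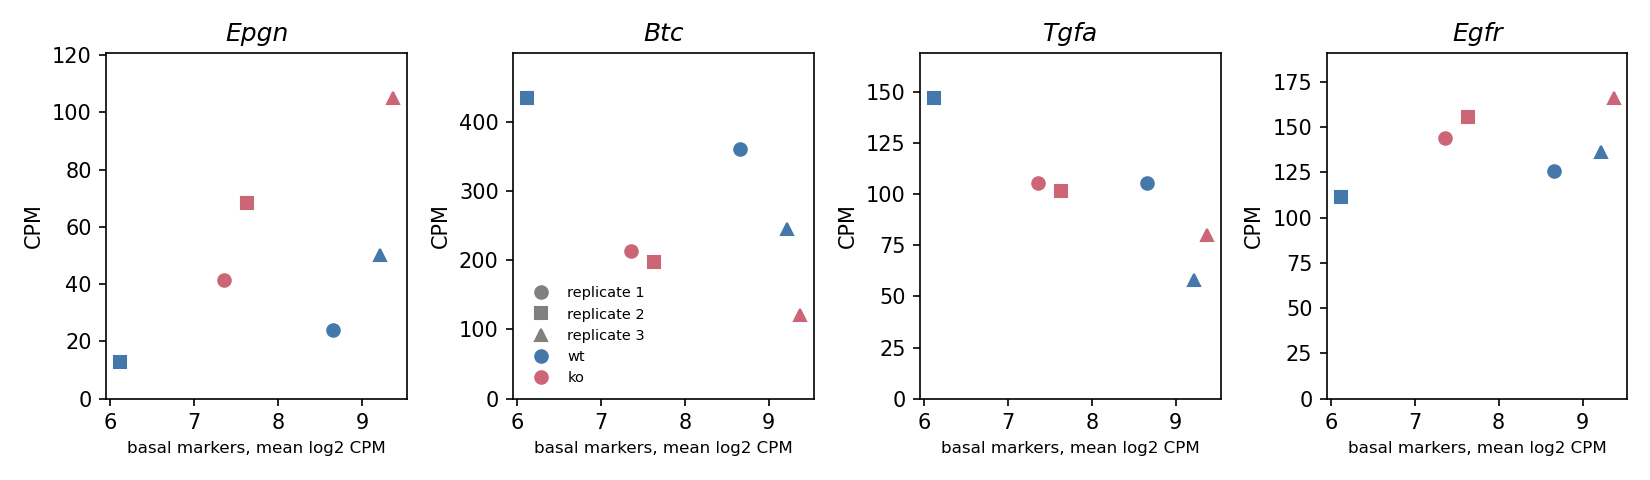
CPM of Epgn, Btc, Tgfa and Egfr in each library (vertical axes, starting at 0) against the mean log2 CPM of 8 basal keratinocyte markers (horizontal axes), with wt in blue, ko in red and marker shapes for the replicate number. The libraries differ more in the basal markers within a group than between groups, Epgn is highest and Btc lowest at the right in ko replicate 3, and the ko points of Egfr lie above the wt points along the whole axis.

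Levels of different genes were compared per kb of merged exons. In wt the order was Btc at 76.7 ± 21.1 CPM per kb (SD, n = 3), Erbb3 at 46.3 ± 3.68, Erbb2 at 45.1 ± 4.94 and Ereg at 27.4 ± 3.85 CPM per kb. Epgn, Tgfa, Hbegf and Areg followed at means between 13.6 and 16.0, Egfr at 11.0 ± 1.09 CPM per kb, with Egf last. Erbb3 and Erbb2 did not differ beyond their spread, nor did Epgn, Tgfa, Hbegf and Areg. Spread here is the SD between libraries and leaves out that all genes were measured in the same libraries. Within each library, wt and ko, Hbegf lay above Areg. In ko Ereg came first at 60.0 ± 12 CPM per kb, ahead of Erbb3 at 48.5 ± 2.78 and Erbb2 at 44.5 ± 7.70, all within one another's spread. Epgn at 39.7 ± 17.6, Btc at 39.3 ± 10.9, Hbegf at 35.6 ± 6.47 and Areg at 32.8 ± 9.01 CPM per kb followed, also not separated from each other or from Erbb2 beyond their spread. Tgfa at 14.8 and Egfr at 13.7 CPM per kb were neighbours that did not differ beyond their spread, above Egf. Merged exons join long and short transcripts, so a gene with a long alternative exon, such as Egfr with 11326 merged bases, has a lower value on this scale.

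The makeup of the ligand pool had less Btc and more Ereg in each ko library. Btc made up 49.2, 51.6 and 36.6% of the summed ligand level per kb across wt replicates 1 to 3 and 24.8, 19.7 and 10.6% across the ko replicates. Each ko share of Btc lay below each wt share. Ereg accounted for 16.1, 17.0 and 16.4% in wt and 24.5, 28.3 and 27.7% in ko. The share of Areg was 8.31 ± 1.27 and 14.6 ± 2.02%, that of Hbegf 9.75 ± 2.48 and 16.0 ± 1.37% in wt and ko (SD, n = 3). Both were higher in each ko library than in any wt library, while the shares of Epgn and Tgfa overlapped. The summed level of the 7 ligands was 162, 186 and 149 CPM per kb in wt and 191, 222 and 254 in ko. That of the 3 receptors was 107, 107 and 93.6 in wt and 116, 106 and 97.6 in ko.

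The log2 ratio of summed ligands to summed receptors was 0.60, 0.80 and 0.67 in wt and 0.72, 1.06 and 1.38 in ko, a difference in means of 0.36. The groups overlapped, since ko replicate 1 lay below wt replicate 2. Without Btc the difference in the log2 ratio was 0.96. That rise follows from leaving out the ligand of highest level in wt, which was lower in ko. These sums are descriptions of the chosen genes and carry no test.

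**Figure D4:**
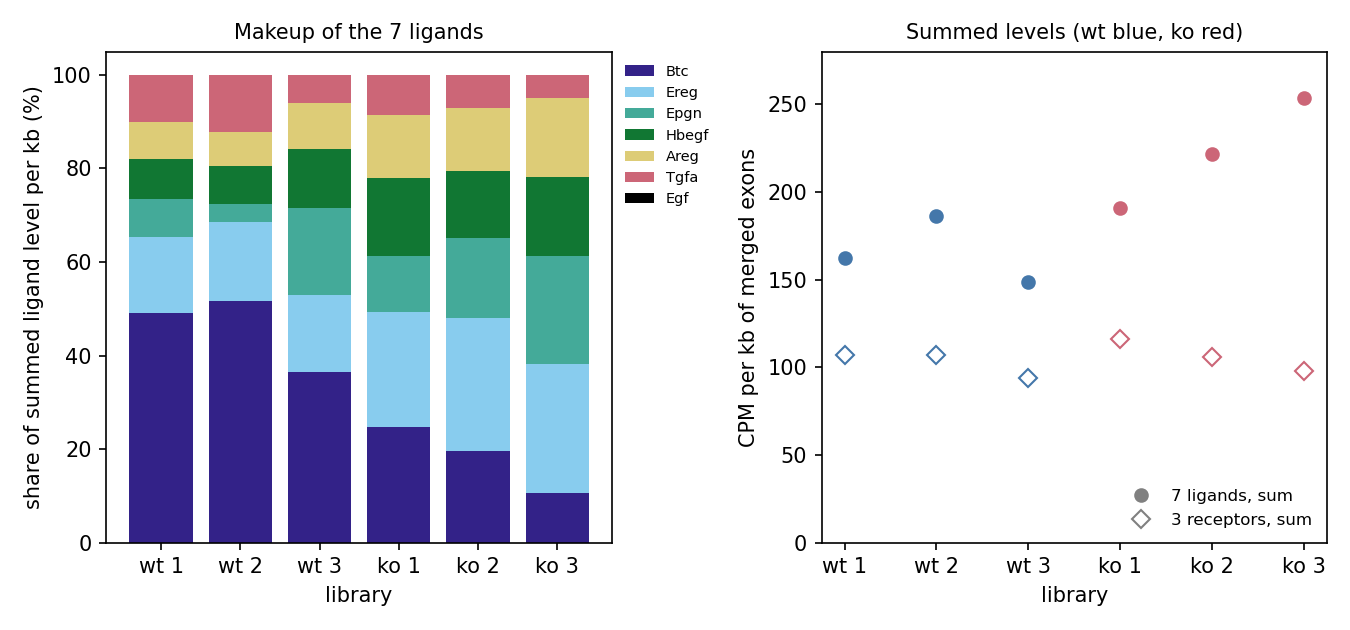
Left, share of each ligand in the summed ligand level per kb of merged exons in each library (stacked bars to 100%). Right, summed level in CPM per kb of the 7 ligands (filled circles) and of the 3 receptors (open diamonds), with wt in blue and ko in red. Btc has the largest share in every wt bar, in ko replicates 2 and 3 Ereg has the largest share, and the receptor sums stay between 93.6 and 116 CPM per kb.

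Genes around the chromosome 5 cluster were examined next. Within 500 kb on either side of the cluster there were 18 other genes, of which 5 passed the filter on low counts and 0 were called by edgeR. Of these 5, 1 lay above and 1 below wt in every ko library, beside 11.3 and 8.03% of all genes. The chemokine gene Cxcl2, upstream of Epgn, stood at 1.12 ± 0.593 and 2.82 ± 0.549 CPM in wt and ko (SD, n = 3; log2 fold change 1.31, SE 0.39, edgeR adjusted p = 0.220). Mthfd2l, a folate enzyme gene directly before Epgn, stood at 4.39 ± 0.971 and 4.82 ± 0.366 CPM (0.13, edgeR adjusted p = 0.880). Parm1, beyond Btc, lay at 39.5 ± 5.49 and 25.2 ± 4.83 CPM where the ko libraries all lay below the wt libraries (-0.65, SE 0.18, edgeR adjusted p = 0.194). Rassf6 at 10.2 ± 3.56 and 7.17 ± 2.51 CPM overlapped between groups (-0.51, edgeR adjusted p = 0.603). Mthfd2l and Cxcl2, under the 5 CPM set for naming, were chosen once their values were known.

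The ligands higher in ko accompanied higher levels of several other lists in the same libraries. The 4 stress keratins Krt6a, Krt6b, Krt16 and Krt17 summed to 1577 to 2063 CPM in wt and 4975 to 11384 CPM in ko. The endothelial markers had sums of 3.46 to 4.49 CPM in wt and 11.1 to 22.0 CPM in ko. All 8 endothelial markers, 7 of them past the low-count filter, lay above wt in every ko library, as did 11.3% of genes tested. Of 8 fibroblast markers 6 did so (90.2 to 188 and 227 to 783 CPM), and of 8 macrophage and Langerhans markers 1 did (66.2 to 113 and 102 to 136 CPM). None of these markers was at 0 in all libraries. Endothelial and fibroblast sums were lowest among the ko libraries in replicate 3, where Areg, Ereg, Hbegf and Epgn were highest. Across wt replicates 1 to 3 the fibroblast sums were 90.2, 160 and 188 CPM, in the order of Areg and Hbegf but not of Ereg or Epgn. The endothelial sums there were 4.49, 3.46 and 4.08 CPM, in the order of none of these ligands. The 6 neutrophil markers summed to 46.4 to 71.9 CPM in wt and 38.1 to 65.3 CPM in ko (3 above wt in every ko library), and Ly6g was at 0 and Mpo had at most 3 reads in any library. Most of this sum was Il1r2, at 51.3, 46.3 and 71.4 CPM across wt replicates 1 to 3 and 37.4, 24.6 and 50.8 CPM across the ko replicates. Cxcr2 went the other way, at 0.308, 0.160 and 0.363 CPM in wt and 5.12, 13.2 and 13.2 CPM in ko (log2 fold change 5.19, edgeR adjusted p = 0.0407). The part of these cells in the ligand levels was not tested.

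The rest of the family was scarce. Erbb4, the receptor shared by Hbegf, Btc, Ereg and the neuregulins, had 1 read in ko replicate 2, 1 in ko replicate 3 and 0 in the other libraries, and Nrg3 had 1 read in all. Both were left out by the filter. Of the neuregulins, which bind ERBB3 (products of Nrg1 and Nrg2) or ERBB4 alone (that of Nrg4), Nrg2 stood at 6.29 ± 2.19 and 4.44 ± 0.533 CPM in wt and ko (SD, n = 3), with a log2 fold change of -0.50 (edgeR adjusted p = 0.574). Nrg4 stood at 5.15 ± 0.583 and 3.73 ± 1.03 CPM (-0.47, edgeR adjusted p = 0.525) and Nrg1 at 0.849 ± 0.395 and 0.640 ± 0.356 CPM (-0.39, edgeR adjusted p = 0.846). All 3 overlapped between the groups, and 0 of the 3 were called.

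Genes that act before and after the receptors were taken from 5 further lists with 53 genes, all of which passed the filter on low counts. None was called by edgeR over all genes. With no adjustment, 10 had a p under 0.05 and ko higher and 1 had ko lower, beside 7.98 and 5.25% of all genes tested, and the median log2 fold change over all genes was 0.02. Of 6 genes of ligand shedding, 2 lay above wt in every ko library, beside 11.3% of all genes (median log2 fold change 0.19). They were the sheddase Adam10, at 106, 107 and 109.8 CPM across wt replicates 1 to 3 and 124, 143 and 149 CPM across the ko replicates, and Frmd8, which stabilises the iRhom-ADAM17 complex, at 28.5 ± 3.04 and 38.0 ± 3.11 CPM in wt and ko (SD, n = 3). Their log2 fold changes were 0.36 (SE 0.12, edgeR adjusted p = 0.251) and 0.42 (SE 0.13, edgeR adjusted p = 0.235). The iRhom genes Rhbdf1 (-0.17) and Rhbdf2 (0.28) overlapped between groups. The 17 adaptor and cascade genes had a median of 0.04 and ran from -0.31 (Map2k2, a MEK kinase) to 0.36 (the adaptor Shc1, at 56.3 ± 8.74 and 72.1 ± 3.05 CPM, adjusted p = 0.338), with only Shc1 separated. The MEK kinase Map2k1 at 0.25 and the GTPase Hras at -0.19 overlapped between groups.

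Inhibitors of the receptors had values in both directions. Of 8 such genes 2 lay above wt in every ko library and 0 below, beside 11.3 and 8.03% of all genes (median log2 fold change 0.22). Errfi1, whose product binds the EGFR kinase and is itself induced by EGFR signalling, was measured at 199, 254 and 201 CPM across wt replicates 1 to 3 and 268, 278 and 360.4 CPM across the ko replicates. Its log2 fold change was 0.47 (SE 0.17, edgeR adjusted p = 0.321), and 0.24 among the dated libraries alone and 0.29 without ko replicate 3. Lrig1, a transmembrane inhibitor of ErbB receptors found in follicle stem cells, was measured at 142, 100.3 and 159 CPM across wt replicates 1 to 3 and 80.4, 63.0 and 101 CPM across the ko replicates. Its lowest wt library lay just below its highest ko library. The log2 fold change was -0.72 (SE 0.23, edgeR adjusted p = 0.260, and 0.0479 with the collection covariate). The E3 ligase gene Cblb had 0.64 (edgeR adjusted p = 0.603), with values of 0.30 to 1.11 when single libraries were left out (lowest without wt replicate 2, 0.34 without ko replicate 3 and highest without wt replicate 3), and Socs5 had 0.36 (edgeR adjusted p = 0.416, ko above wt in every library), which was 0.22 among the dated libraries and 0.20 without wt replicate 3.

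Among the pathway lists the largest log2 fold changes belonged to cascade inhibitors and genes induced by ERK signalling. Dusp6, the ERK phosphatase that is itself transcribed in response to ERK, was measured at 32.0, 23.6 and 48.0 CPM across wt replicates 1 to 3 and 51.8, 59.5 and 147 CPM across the ko replicates. The groups did not overlap, and ko replicate 3 stood far above the rest. The log2 fold change was 1.32 (SE 0.45, edgeR adjusted p = 0.288), 1.21 with the collection covariate (adjusted p = 0.0196) and 0.98 among the dated libraries alone (adjusted p = 0.0471). Without ko replicate 3 it was 0.65 for Dusp6 and 0.27 for Dusp5. Dusp5, the nuclear ERK phosphatase, stood at 125 ± 1.82 and 178 ± 41.4 CPM in wt and ko (SD, n = 3), also without overlap (0.51, edgeR adjusted p = 0.284). Spred1 (0.49) and Spry1 (0.36), which restrain RAS signalling, overlapped, and the 8 cascade inhibitors had a median of 0.30.

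Of 14 genes induced by ERK signalling 5 lay above wt in every ko library and 0 below, beside 11.3 and 8.03% of all genes, with a median log2 fold change of 0.24. The ETS factor gene Etv4 was measured at 2.73, 3.99 and 7.62 CPM across wt replicates 1 to 3 and 8.60, 17.1 and 20.7 CPM across the ko replicates, and its relative Etv5 at 4.36, 1.49 and 7.44 CPM across wt replicates 1 to 3 and 8.90, 11.8 and 24.7 CPM across the ko replicates. In both genes wt replicate 3 came close to ko replicate 1. Their log2 fold changes were 1.69 (SE 0.46, edgeR adjusted p = 0.184) and 1.76 (SE 0.60, edgeR adjusted p = 0.285). Phlda1, a pleckstrin-homology gene induced by growth factors, was measured at 29.1, 24.9 and 23.8 CPM across wt replicates 1 to 3 and 49.7, 58.5 and 106 CPM across the ko replicates. Each ko value exceeded each wt value, by most in ko replicate 3 (1.46, SE 0.29, edgeR adjusted p = 0.101). Ier3, an immediate early gene, stood at 33.9 ± 2.37 and 58.5 ± 10.1 CPM in wt and ko (SD, n = 3; 0.78, SE 0.15, edgeR adjusted p = 0.0946). DESeq2 called Ier3, Phlda1 and Etv4 higher, beside 2.82% of all genes, and with the collection covariate edgeR called these 3 and Etv5, beside 3.2%. Without ko replicate 3 the log2 fold change of Etv5 was 1.17. The fifth gene without overlap, Junb (0.24, edgeR adjusted p = 0.583), and the genes of the next sentence were chosen once their values were known. The abundant immediate early genes Egr1 at 1162 ± 147 and 1276 ± 256 CPM and Fos at 1447 ± 342 and 1602 ± 366 CPM overlapped between groups (0.14 and 0.15), as did Myc (-0.36).

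**Figure D5:**
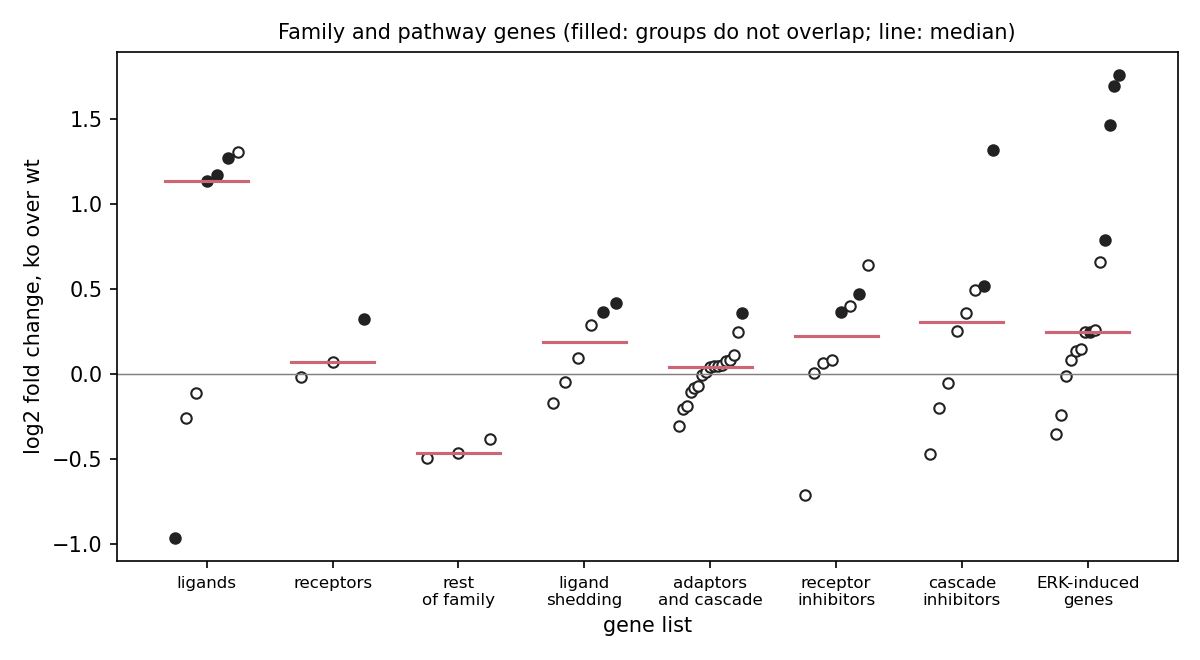
Log2 fold change of ko over wt (edgeR) for each gene that passed the filter in the 2 member lists and 6 further lists of the pathway, with filled points where the groups do not overlap and a red line at each list's median. The ligands have a median of 1.13 and the receptors one of 0.07, beside 0.02 over all genes tested, and the adaptor and cascade genes lie within -0.31 to 0.36.

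Likeness of pattern was measured for the ligand and the receptor of smallest p, as the root mean square difference between centred log2 CPM over the 6 libraries, among 9937 other genes of at least 5 CPM. The genes most like Hbegf were the prostaglandin D synthase gene Hpgds (difference 0.0614), Tbc1d2, a Rab GTPase-activating protein gene (0.103), and Samhd1, a dNTP hydrolase gene (0.105), where Hbegf itself had an SD of 0.61. Hpgds stood at 36.4 and 77.0 CPM in wt and ko. Those most like Egfr were Dnttip2 (0.0252), the topoisomerase gene Top1 (0.0253) and the heparan sulfate 2-O-sulfotransferase gene Hs2st1 (0.0335), where Egfr had an SD of 0.19. These are descriptions over 6 libraries that include the group difference.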

How the data were processed

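The 6 libraries, 3 wt and 3 ko, were grouped by the genotype label, with replicate numbers from the marks I and II in the titles and 3 for the undated pair. Libraries were strand-specific (TruSeq Stranded mRNA) and single-end, per the labels' protocols. The authors deposited raw counts of reads per Ensembl gene. Alignment to mm10 is listed with TopHat2 2.0.12 and Bowtie 1.1, beside HTSeq, per the submitters' processing notes. Tool settings, annotation release and strand option were not given in the sources used here. Reads not assigned to a gene (33.3 to 41.6% of reads listed, nearly all with more than 1 alignment) stayed out of library sizes and tests. Replicates differed beyond sampling noise (chi-square over its degrees of freedom, 26.2 to 113), so each counted as 1 sample. Depth leaves little counting error for the members except Egf.

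Symbols came from the reference table of gene names (40254 of 41214 identifiers) and coordinates and exon lengths from GENCODE M21 on GRCm38, the assembly of mm10. Counts kept by filterByExpr (13704 genes) were scaled by TMM, fitted with edgeR 4.0.16 in R 4.3.3 (glmQLFit, robust, current settings) and tested with glmQLFTest, group as the only factor, Benjamini-Hochberg adjustment over all genes tested and a threshold of 0.05. CPM are counts over the scaled library size of the tested genes. Each SE was obtained as the absolute log2 fold change divided by the root of F. DESeq2 1.42.0, limma-voom (limma 3.58.1), other scalings and filters, a replicate block, covariates for collection, basal markers and sex, the dated libraries alone and leaving out each library were tried. A simulation changed 200 of 13704 genes. There edgeR recovered 28.4% of 2-fold and 88.1% of 4-fold changes, DESeq2 37.3 and 86.6%, and limma-voom 25.4 and 86.6%. False calls were 7 of 145 for edgeR, 16 of 159 for DESeq2 and 4 of 139 for limma-voom. The main test therefore missed most 2-fold changes there, and a member it did not call is not shown to be unchanged.

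The members and gene lists were chosen with earlier results of these data known, so their directions are not independent support. Named genes were the 10 members, 5 other family genes, the 4 genes of smallest p in each of 5 lists, genes of at least 5 CPM within 500 kb of the chromosome 5 cluster, and the 3 genes most like the ligand and the receptor of smallest p. Of the marker lists, basal, suprabasal, stress keratinocyte, sebaceous, melanocyte, Schwann, endothelial, fibroblast, macrophage and neutrophil are given in the report. Summed CPM of the others ran from 3551 to 7654 in wt and 3520.3 to 4409 in ko for hair follicle, 32.8 to 42.0 and 27.4 to 50.7 for T cells, 1.22 to 3.40 and 1.15 to 31.3 for skeletal muscle, and 16.0 to 19.8 and 11.1 to 13.3 for adipocytes. The high muscle value came from ko replicate 2 alone.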

Additional observations from a re-analysis of the deposited data

How the results depend on the processing

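The count of members called, 0 in the main test, was 4 with DESeq2, 4 with the replicate block, 4 with the collection covariate, 3 among the dated libraries only and 5 with the basal covariate, and 0 under the other scalings and filters, limma-voom, the sex covariate and each left-out library. The count of all genes called, 30, became 57 with no filter on low counts, 18 with a filter of 1 CPM in 3 libraries, 650 with DESeq2, 0 with limma-voom (1748 at an unadjusted p under 0.05), 354 with the replicate block, 709 with the collection covariate, 227 among the dated libraries, 891 with the basal covariate and 62 with the sex covariate. Leaving out single libraries gave 0 to 64 genes, with 0 without any wt replicate or ko replicate 2 (1229 to 2350 at an unadjusted p under 0.05). Areg, Ereg, Hbegf, Epgn and Egfr stayed above 0 and Btc below 0 under all 18 alternatives. Signs turned for members near 0, namely Tgfa (0.18 with the sex covariate, -0.42 to 0.22 without single libraries, positive without wt replicate 2), Egf (-0.45 to 0.047, positive without wt replicate 2), Erbb2 (0.034 with the sex covariate, -0.15 to 0.067, positive without wt replicate 2 or ko replicate 3) and Erbb3 (-0.014 to 0.094, negative without wt replicate 3). The ko minus wt difference in the log2 ligand to receptor ratio, 0.36, was 0.20 to 0.53 without single libraries. Without Btc it was 0.96, a rise that follows from leaving out a ligand that was lower in ko.

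Equally numbered libraries did not all deviate together (correlations across genes of -0.18, 0.47 and 0.67 for numbers 1 to 3), so the numbers were not taken to pair the samples, and wt replicates 1 and 2 did not correlate best with their own numbers. With the replicate block the 4 members called were Areg, Ereg, Hbegf and Btc, beside 2.58% of all genes. Depth limits Egf, Erbb4, Nrg1 and Nrg3, which had at most 22 reads per library.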
